A study of Mus musculus with 6 samples.

Results

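The SIBLING proteins (small integrin-binding ligand, N-linked glycoproteins) are secreted, acidic phosphoproteins of mineralising matrix, and their genes lie side by side on mouse chromosome 5. They were examined together with genes through which bone cells handle phosphate and mature into osteocytes. Rows of the deposited count table were chosen by gene name, which gave 10 genes of 43346: Dmp1, Ibsp, Mepe, Spp1 and Dspp of the SIBLING cluster, and Fam20c, Phex, Fgf23, Sost and Pdpn. RNA-seq libraries were made from bones of the forelimbs and hindlimbs of C57BL/6 mouse pups at 1 day of age, cleaned of soft tissue. There were 3 libraries from pups labelled Hdac3 CKO and 3 from pups labelled WT. The series text ties the knockout to Prx1, a gene whose enhancer, where it drives Cre, acts in limb bud mesenchyme, the source of bone, cartilage and tendon but not of blood cells or muscle fibres. The labels do not say whether WT pups carried floxed or Cre alleles, nor whether each library came from its own animal or litter. All p-values therefore rest on the variation among these 6 libraries, and its technical share is unknown.

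SIBLING proteins bind mineral and collagen, and several carry the RGD motif that integrins recognise. Fam20C, a kinase of the Golgi, phosphorylates them on serines during secretion. Osteocytes, the osteoblasts that have become embedded in bone, make DMP1 and the peptidase PHEX, and loss of either is known to raise the phosphate-wasting hormone FGF23. Sclerostin, encoded by Sost, is made by mature osteocytes, and podoplanin, encoded by Pdpn, is known from osteocytes that are forming their dendrites.

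The 5 SIBLING genes run in 1 direction along chromosome 5 of mm10 in the deposited table. Dspp lies at 104170712 to 104180127, Dmp1 at 104202617 to 104214102, Ibsp at 104299171 to 104311469, Mepe at 104325329 to 104338611 and Spp1 at 104435118 to 104441050. All 5 are protein-coding genes on the forward strand in GENCODE M21. In the deposited table no other gene overlaps them. Fam20c lies elsewhere on chromosome 5, at 138754514 to 138810077. The other genes are Phex on chromosome X, Fgf23 on chromosome 6, Sost on chromosome 11 and Pdpn on chromosome 4.

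The bases before each start are shown because these neighbouring genes had unequal fold changes in the comparison that follows. RefSeq windows (GRCm38.p6) were found for 9 of the 10 genes, and not for Dspp. Of the 2 windows each of Dmp1 and Spp1, the one nearest the deposited start is used. The 250 bases before each RefSeq start were searched on both strands for TGTGGT (the core bound by RUNX factors), CCAAT (the CCAAT box), TATAAA (the TATA box), TAATTA (the homeodomain core), TGA and TCA with any base between them (the AP-1 site) and CTA and TAG with any 4 bases between them (a MEF2-like motif). Matches are in capitals, and no match shown overlaps another. They describe letters in the window and do not show binding.
Dmp1, chr5:104202367-104202612, forward strand: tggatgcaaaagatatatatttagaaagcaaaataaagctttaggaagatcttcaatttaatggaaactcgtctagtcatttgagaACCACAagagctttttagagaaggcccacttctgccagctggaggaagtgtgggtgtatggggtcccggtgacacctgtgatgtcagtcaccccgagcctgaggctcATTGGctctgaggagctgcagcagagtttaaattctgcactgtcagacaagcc
Mepe, chr5:104325079-104325328, forward strand: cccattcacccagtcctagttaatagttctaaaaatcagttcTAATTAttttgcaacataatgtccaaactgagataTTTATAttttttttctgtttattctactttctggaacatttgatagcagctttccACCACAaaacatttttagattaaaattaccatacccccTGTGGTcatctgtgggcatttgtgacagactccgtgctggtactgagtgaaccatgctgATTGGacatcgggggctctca
Spp1, chr5:104434861-104435110, forward strand: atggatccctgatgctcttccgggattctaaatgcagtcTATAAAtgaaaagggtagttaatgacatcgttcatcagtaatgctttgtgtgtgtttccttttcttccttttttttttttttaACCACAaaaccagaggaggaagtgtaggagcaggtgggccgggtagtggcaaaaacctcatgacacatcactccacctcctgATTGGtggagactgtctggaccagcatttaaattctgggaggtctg

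The RUNX core stood in these 3 windows, as TGTGGT or as its reverse complement ACCACA, and 14.0% of 32544 windows in the RefSeq table held it. The windows of Ibsp and of the 5 genes outside the cluster held none, nor did the windows of Dmp1 and Spp1 that were not used. The unused Spp1 window also held no CCAAT box, while the unused Dmp1 window did. Shares of all windows were 12.3% for the TATA box, 4.8% for the homeodomain core, 6.7% for the AP-1 site and 3.2% for the MEF2-like motif. Each of the 4 windows, Ibsp included, held a CCAAT box in reverse, as ATTGG, close to the RefSeq start. The RefSeq start of Ibsp lies downstream of its deposited start, so the Ibsp site lies inside the gene as the deposited table bounds it. To compare that site, 25 bases around it are aligned here, with the box in capitals.
Dmp1, chr5:104202550-104202574: cctgaggctcATTGGctctgaggag
Ibsp, chr5:104299223-104299247: cacagctgtgATTGGctgttgagag
Mepe, chr5:104325298-104325322: aaccatgctgATTGGacatcggggg
Spp1, chr5:104435055-104435079: ccacctcctgATTGGtggagactgt
The box began 57, 54, 21 and 46 bases before the RefSeq start of Dmp1, Ibsp, Mepe and Spp1. In either orientation 33.8% of all windows held CCAAT, and 5.9% held ATTGG in the 60 bases nearest the start, a stretch chosen after these sites were seen. Outside the cluster, Sost also held ATTGG, 56 bases before its start, and Fam20c held the box as CCAAT, 73 bases before its start. Ibsp also held the TATAAA motif, in reverse, 28 bases before its RefSeq start. The windows used for Dmp1, Mepe and Spp1 held both the reversed CCAAT box and the RUNX core. Any relation of these motifs to the fold changes was not tested.

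Hdac3, the targeted gene, had 31.8, 29.4 and 28.3 CPM in Hdac3 CKO bones, against 48.4, 47.4 and 50.3 CPM in WT bones (CPM, read counts relative to the TMM-scaled library size). The fall of 0.71 ± 0.12 (SE) on the log2 scale had an adjusted p of 0.027 in edgeR and did not pass without any 1 library other than Hdac3 CKO library 1 (0.068 to 0.126). These are counts over the whole gene, so exons that the knockout keeps are included. Total counts ranged from 43389262 to 46926855 in Hdac3 CKO and from 46156691 to 50927978 in WT. Library 3 of each genotype was rich in cartilage RNA: Col2a1, the main cartilage collagen, stood at 896, 453 and 11502 CPM in Hdac3 CKO and at 882, 784 and 5212 CPM in WT. Xist, the RNA of the inactive X chromosome, stood at 700, 1425 and 19.3 CPM in Hdac3 CKO and at 2094, 1815 and 1671 CPM in WT. The Y-linked gene Ddx3y reached 48.1 CPM in Hdac3 CKO library 3 and at most 2.18 CPM in the other libraries. Results were therefore also computed without library 3 of both genotypes and with Xist as a covariate. Of these, the covariate was chosen after the data were seen.

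Of the 10 genes, 9 passed the filter on low counts, and 1 of the 9, Dmp1, rose in Hdac3 CKO bones, while 0 fell. A gene was said to rise or fall at an adjusted p (Benjamini-Hochberg, over 20210 genes) under 0.05 in the quasi-likelihood test of edgeR. Of all tested genes 0.703% rose and 0.475% fell. At an unadjusted p under 0.05 there were 3 of the 9 higher, Dmp1, Ibsp and Fam20c, and 1 lower, Mepe, beside 7.79% and 7.2% of all tested genes. DESeq2 called 2 of the 9 higher, Dmp1 and Ibsp, and 0 lower, where it called 2.64% of its tested genes higher and 2.12% lower. The libraries of the genotypes did not overlap for the same 3 genes above WT and for Mepe below it, where 11.5% of all tested genes were higher without overlap and 10.9% lower. The median log2 fold change of the 9 genes was 0.515, against 0.000976 over all tested genes. Since the tissue was bulk bone, fewer or more cells of a type and less or more RNA per cell cannot be told apart.

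**Figure D1:**
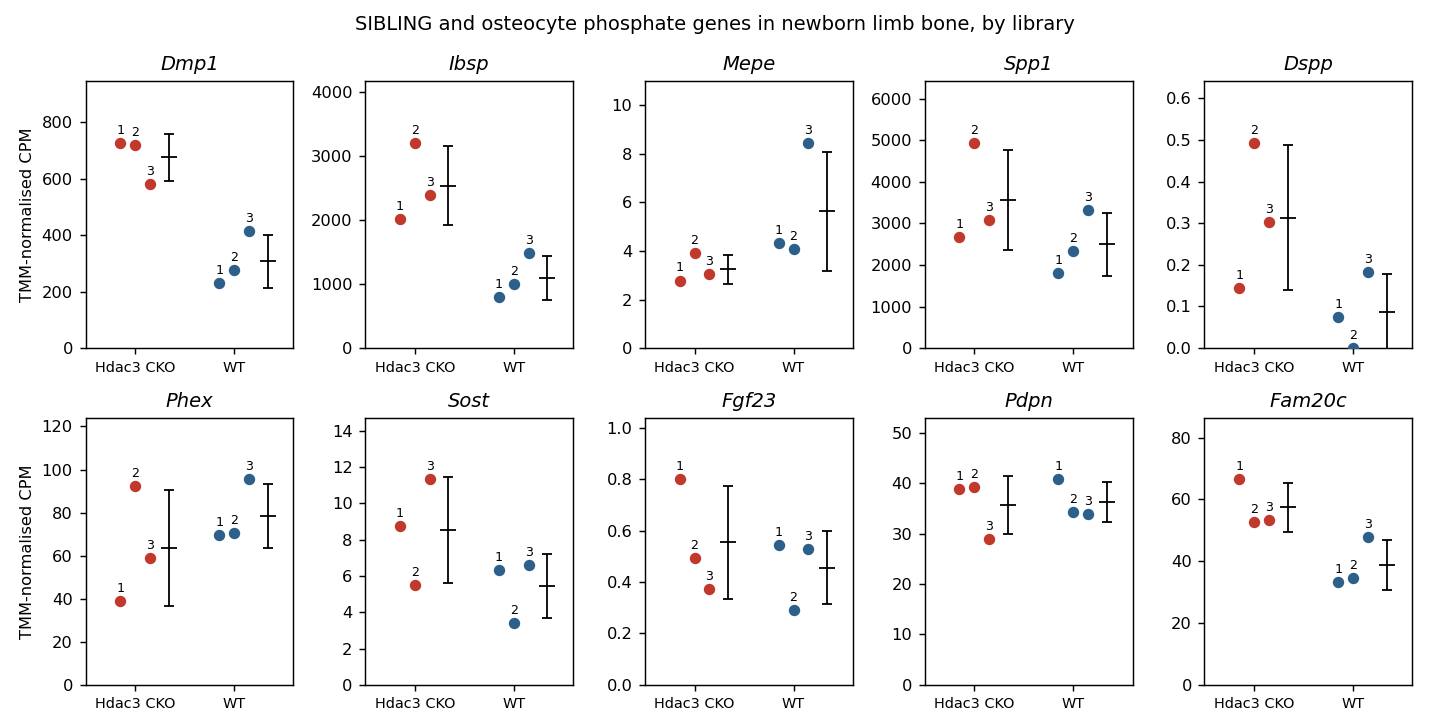
TMM-normalised CPM (vertical axes, each from 0) of the 10 genes in the Hdac3 CKO libraries (red) and the WT libraries (blue), numbered by replicate, with the mean and SD of 3 libraries in black (the WT bar of Dspp is cut off at 0). The Hdac3 CKO libraries lie above the WT libraries for Dmp1, Ibsp and Fam20c and below them for Mepe.

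Dmp1 encodes dentin matrix protein 1, which osteocytes secrete into the matrix around them and which promotes mineral formation. It had 727, 718 and 580.0 CPM in Hdac3 CKO bones, against 230, 278 and 413 CPM in WT bones. The lowest Hdac3 CKO library lay above the highest WT library, which was the cartilage-rich library 3. Dmp1 averaged 675 ± 82.3 CPM in Hdac3 CKO and 307 ± 94.8 CPM in WT (SD, n = 3 each). Its log2 fold change was 1.14 ± 0.21 (SE), a fold of 2.20, and its adjusted p was 0.041 in edgeR. The call held in 6 of 16 alternatives, among them DESeq2 (adjusted p 4.8e-05), limma-voom (0.041) and without WT library 3 (0.028). It ended without any other single library (adjusted p 0.079 to 0.179), without library 3 of both genotypes (1.51, adjusted p 0.097), with library totals as the scale (0.95, 0.081), on log2 RPKM (0.109 and 0.117) and with the Xist covariate (0.145), always above 0.

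Ibsp encodes bone sialoprotein, a nucleator of mineral made by osteoblasts and hypertrophic chondrocytes. It stood at 2014, 3213 and 2395 CPM in Hdac3 CKO bones, against 801, 1004 and 1480.2 CPM in WT bones, again without overlap. The log2 fold change of 1.21 ± 0.25 (SE) was the highest of the 9 genes, and its adjusted p of 0.057 in edgeR missed the threshold. DESeq2 gave Ibsp an adjusted p of 1.1e-04, the fit with no filter on low counts 0.041 and the fit without WT library 3 0.045. Under the other alternatives Ibsp did not pass, and its log2 fold change was between 1.01 and 1.53.

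Spp1 encodes osteopontin, which restrains crystal growth and anchors osteoclasts to bone, and which macrophages also make. It was the most abundant of the 10 genes. Spp1 had 2683, 4943 and 3073 CPM in Hdac3 CKO bones, against 1817, 2345 and 3325 CPM in WT bones. The groups overlapped, because WT library 3 lay above 2 of the Hdac3 CKO libraries. Its log2 fold change was 0.51 ± 0.28 (SE) and the adjusted p 0.41 in edgeR, and it was 0.21 without Hdac3 CKO library 2, 0.33 without WT library 1, 0.78 without WT library 3 and 0.87 without library 3 of both genotypes.

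Mepe encodes matrix extracellular phosphoglycoprotein, whose acidic ASARM peptide inhibits mineralisation. It was the SIBLING gene with a negative fold change. Its raw counts were 115, 167 and 131 in Hdac3 CKO libraries, against 231, 211 and 416 in WT libraries. These were 2.78, 3.92 and 3.05 CPM in Hdac3 CKO, against 4.34, 4.09 and 8.46 CPM in WT. The groups did not overlap, though Hdac3 CKO library 2 and WT library 2 were close. The log2 fold change of -0.79 ± 0.30 (SE) had an adjusted p of 0.27 in edgeR. Without WT library 3, the library with the most Mepe, it was -0.37.

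Dspp, whose product is cleaved into the main phosphoproteins of dentin, was close to absent. It had 6, 21 and 13 counts in Hdac3 CKO libraries, against 4, 0 and 9 counts in WT libraries, too few for the filter. The 40 counts in Hdac3 CKO and 13 in WT gave a ratio per total count of 3.28. Its 95% exact interval, for counting error alone, ran between 1.72 and 6.69. The 0 in WT library 2 allows up to 0.0582 CPM, from 3 counts. With no filter on low counts, the log2 fold change of Dspp was 1.86 ± 0.74 (SE) and the adjusted p 0.33 in edgeR. The enamel matrix gene Enam had 0 counts in each of the 6 libraries, and Amelx stood at 0.093 CPM or less.

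The cluster as a whole took 0.478%, 0.871% and 0.577% of all counts in Hdac3 CKO libraries, against 0.298%, 0.395% and 0.557% in WT libraries. Within it, Spp1 held 49.4%, 55.7% and 50.8% of the reads on the 5 genes in Hdac3 CKO, against 63.7%, 64.6% and 63.6% in WT. Ibsp held 37.1%, 36.2% and 39.6% in Hdac3 CKO, against 28.1%, 27.7% and 28.3% in WT. The Spp1 shares lay lower and the Ibsp shares higher in each Hdac3 CKO library than in any WT library. Dmp1 held 13.4%, 8.08% and 9.59% in Hdac3 CKO, against 8.08%, 7.64% and 7.90% in WT. Mepe held 0.0486 ± 0.0039% in Hdac3 CKO and 0.142 ± 0.026% in WT (SD, n = 3 each). The WT shares lay close together although the cluster's share of all counts in WT varied between 0.298% and 0.557%.

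A ratio of 2 genes within a library does not depend on how libraries are scaled, and 4 such ratios were compared. The log2 ratio of Spp1 to Ibsp was 0.41, 0.62 and 0.36 in Hdac3 CKO, against 1.18, 1.22 and 1.17 in WT. The difference of -0.73 means that Spp1 relative to Ibsp stood at 0.604 of its WT ratio, with no overlap and a WT spread of 0.029 (SD). The log2 ratio of Dmp1 to Mepe was 8.03, 7.52 and 7.57 in Hdac3 CKO, against 5.73, 6.08 and 5.61 in WT, a difference of 1.90 or a fold of 3.73. Both ratios gave p = 0.1 in a two-sided exact permutation test, the smallest that 3 libraries against 3 allow, and 0.2 after Benjamini-Hochberg adjustment over the 4 ratios. For Dmp1 to Mepe this p was fixed in advance, since Dmp1 lay above WT and Mepe below it, each without overlap. That ratio therefore adds no evidence to the values of the 2 genes. The difference in Spp1 to Ibsp stayed between -0.80 and -0.67 when any 1 library was left out, and was -0.69 without library 3 of both genotypes.

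Against Col1a1, the main collagen of bone, Dmp1 and Ibsp were compared, and both ratios overlapped between the genotypes. Col1a1 itself had 55680.0, 42624 and 36001 CPM in Hdac3 CKO, against 23530.0, 25236 and 31116 CPM in WT, with a log2 fold change of 0.75 ± 0.23 (SE) and an adjusted p of 0.18 in edgeR. The log2 ratio of Dmp1 to Col1a1 was -6.26, -5.89 and -5.96 in Hdac3 CKO, against -6.67, -6.51 and -6.24 in WT (p = 0.2, exact permutation test, 0.27 adjusted). Hdac3 CKO library 1 thus lay below WT library 3. The log2 ratio of Ibsp to Col1a1 was -4.79, -3.73 and -3.91 in Hdac3 CKO, against -4.88, -4.65 and -4.39 in WT (p = 0.3, exact permutation test, 0.3 adjusted). Its difference of 0.50 was 0.82 without Hdac3 CKO library 1 and 0.29 without Hdac3 CKO library 2.

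**Figure D2:**
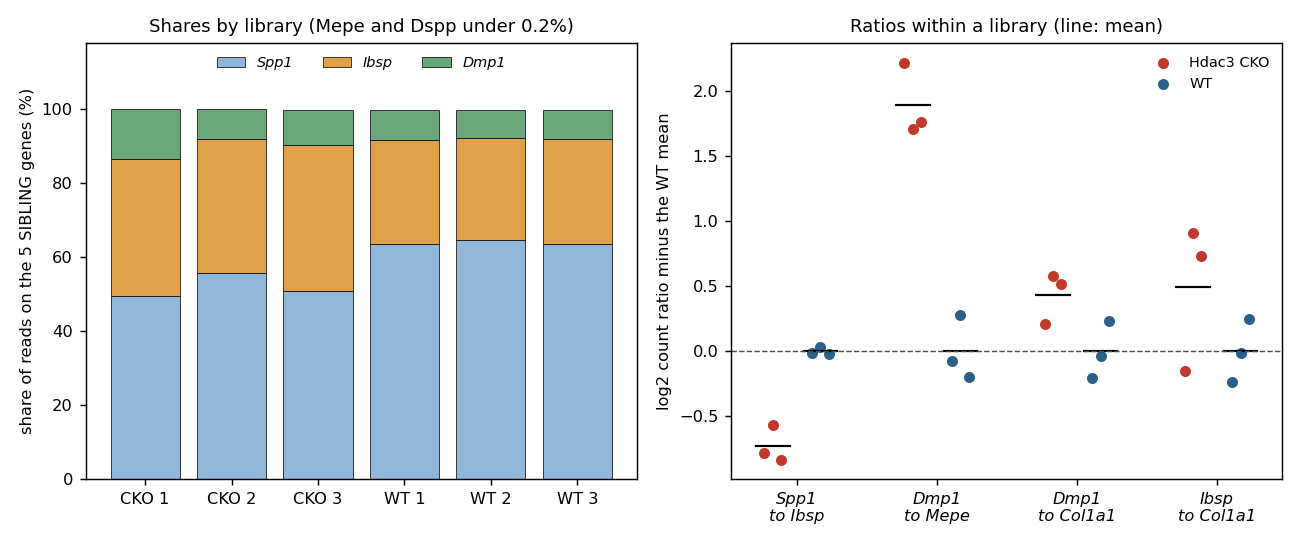
Left, the share (%) of reads on the 5 SIBLING genes held by Spp1, Ibsp and Dmp1 in each Hdac3 CKO (CKO) and WT library. Right, log2 count ratios within a library minus the WT mean, with Hdac3 CKO in red, WT in blue and group means as lines. Spp1 to Ibsp lies lower in the 3 Hdac3 CKO libraries than in WT and Dmp1 to Mepe higher, while both ratios to Col1a1 overlap.

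The genes around the cluster were examined within 500 kb of its ends, since the deposited table places 19 further genes there. Of these, 12 passed the filter on low counts and 0 rose or fell in edgeR, with 0 at an unadjusted p under 0.05 and 0 called by DESeq2. Their log2 fold changes ran from -0.34 for Zfp951 to 0.31 for Klhl8. Sparcl1, a matricellular gene before Dspp, had 341, 309 and 333 CPM in Hdac3 CKO, against 310.3, 341 and 253 CPM in WT, and a log2 fold change of 0.12 ± 0.15 (SE). Pkd2, which encodes the channel polycystin 2 and lies next to Spp1, stood at -0.07 ± 0.17 (SE). The others were Aff1 (0.14), Nudt9 (0.08), Gm26703 (0.08), Hsd17b11 (-0.27), BC005561 (-0.26), D930016D06Rik (-0.34), Gm8258 (-0.28) and Abcg3 (-0.13). None of the 12 had libraries that did not overlap between the genotypes, and the share among all tested genes was 22.5%.

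**Figure D3:**
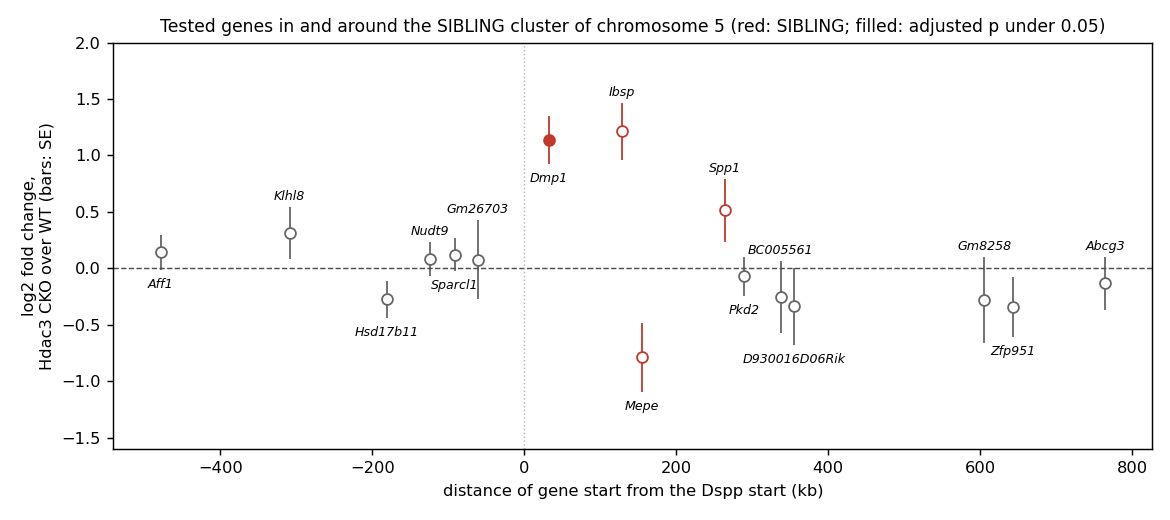
Log2 fold change of Hdac3 CKO over WT (bars, SE) against the distance of each gene's start from the Dspp start (kb), for tested genes within 500 kb of the cluster. Dmp1, Ibsp and Spp1 lie above 0 and Mepe below it (red), and the 12 other genes (grey) lie between -0.34 and 0.31.

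Fam20c, the kinase of secreted phosphoproteins, stood at 66.5, 52.5 and 53.3 CPM in Hdac3 CKO bones, against 33.4, 34.6 and 48.0 CPM in WT bones. The groups did not overlap, and WT library 3 came nearest to the Hdac3 CKO libraries. Its log2 fold change of 0.57 ± 0.17 (SE) did not pass, with an adjusted p of 0.17 in edgeR. Across the 6 libraries Fam20c followed Dmp1 (Pearson r = 0.951 on log2 CPM) as Ibsp did (0.951), a description over libraries that share the difference between genotypes.

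Phex, the peptidase whose loss causes X-linked hypophosphataemia in humans, varied more within Hdac3 CKO than between the genotypes. It had 39.1, 92.3 and 58.7 CPM in Hdac3 CKO bones, against 69.5, 70.3 and 95.4 CPM in WT bones. The log2 fold change was -0.31 ± 0.28 (SE) and the adjusted p 0.62 in edgeR. It was -0.68 without Hdac3 CKO library 2, -0.06 without Hdac3 CKO library 1, -0.14 without WT library 3 and -0.18 with the Xist covariate. Among the Hdac3 CKO libraries Phex was highest in library 2, as were Spp1 and Ibsp, while WT library 3 had the most Phex of the 6. Xist did not overlap between the genotypes, and its part in the Phex values was not tested beyond that covariate. There were 3 other genes of the deposited table that overlapped Phex, with 22 counts over the 6 libraries.

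The hormone gene Fgf23 had few reads, with 33, 21 and 16 counts in Hdac3 CKO libraries, against 29, 15 and 26 counts in WT libraries. The groups overlapped, and the log2 fold change was 0.28 ± 0.42 (SE) and the adjusted p 0.78 in edgeR. It was -0.08 without Hdac3 CKO library 1, so no direction can be given at this depth. Sost, which encodes the Wnt antagonist sclerostin, had 8.77, 5.50 and 11.3 CPM in Hdac3 CKO bones, against 6.31, 3.41 and 6.61 CPM in WT bones. Its log2 fold change of 0.65 ± 0.31 (SE) did not pass, with an adjusted p of 0.36 in edgeR, and 1 Hdac3 CKO library lay within the WT range. It was 0.39 without Hdac3 CKO library 3, 0.40 without WT library 2 and 0.24 with the Xist covariate.

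Pdpn, which also marks lymphatic vessels, had 38.9, 39.2 and 29.0 CPM in Hdac3 CKO bones, against 40.8, 34.2 and 33.9 CPM in WT bones. The log2 fold change of -0.02 ± 0.16 (SE) was the nearest to 0 of the 9 genes, and its sign turned without Hdac3 CKO library 3 (0.11). The lymphatic markers Lyve1, Prox1, Flt4 and Ccl21a summed to 73.7 to 93.8 CPM in Hdac3 CKO and 55.6 to 75.0 CPM in WT, and 0 of the 4 rose or fell in edgeR, with Lyve1 at 0.58 and Flt4 at 0.06. There was 1 of these 4 higher at an unadjusted p under 0.05, and DESeq2 called 0, with a list median of 0.0149.

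**Figure D4:**
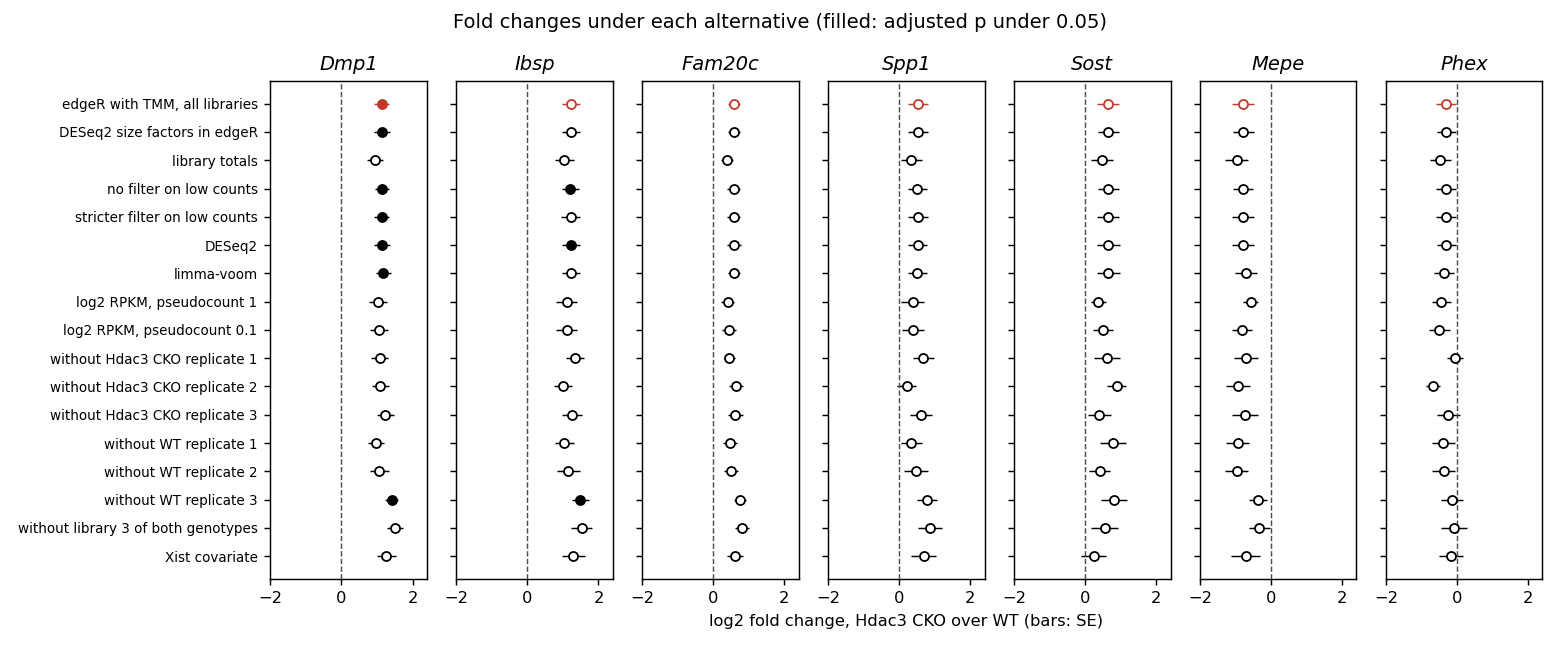
Log2 fold changes of Hdac3 CKO over WT (horizontal axes, bars SE) of 7 genes under the reported fit (red, top row) and 16 alternatives. Each of these 7 genes keeps its sign throughout, and the filled points, with an adjusted p under 0.05, are those of Dmp1 and Ibsp.

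Levels were compared between genes on the authors' RPKM scale, which divides by gene length. In Hdac3 CKO bones the order was Spp1 (1640 ± 561 RPKM), Ibsp (930 ± 226), Dmp1 (185 ± 24.9), Pdpn (14.9 ± 2.59), Fam20c (10.3 ± 1.51), Phex (7.63 ± 3.25), Sost (3.12 ± 1.04), Mepe (1.46 ± 0.273), Fgf23 (0.232 ± 0.095) and Dspp (0.054 ± 0.030), each mean ± SD with n = 3. In WT bones it was Spp1 (1265 ± 429 RPKM), Ibsp (442 ± 154), Dmp1 (92.8 ± 31.3), Pdpn (16.5 ± 0.742), Phex (10.4 ± 2.21), Fam20c (7.61 ± 1.79), Mepe (2.78 ± 1.25), Sost (2.15 ± 0.613), Fgf23 (0.205 ± 0.054) and Dspp (0.016 ± 0.017). Fam20c stood before Phex and Sost before Mepe in Hdac3 CKO, and both pairs stood the other way round in WT. The libraries of Fam20c and Phex overlapped in both genotypes, those of Pdpn and Fam20c in Hdac3 CKO, and those of Mepe and Sost in WT.

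The genes whose log2(CPM + 0.5) followed each SIBLING gene most closely over the 6 libraries are named as a description, since all genes with a mean of at least 1 CPM were ranked on 6 points. For Dmp1 they were Cfp (r = 0.998), Slc44a4 (0.997) and Pik3ap1 (0.997), with log2 fold changes of 0.91, 1.23 and 1.05. For Ibsp they were Rundc3a (r = 0.997), Tnfrsf11a (0.987), which encodes RANK of osteoclast precursors, and Galnt6os (0.985). For Mepe they were Adap1 (r = 0.998), Treml2 (0.996) and Acsl5 (0.983). For Spp1 they were Gpatch3 (r = 0.986), the collagenase gene Mmp13 (0.984) and Atp6v1h (0.980), which encodes a subunit of a proton pump. Their log2 fold changes were 0.25, 0.69 and 0.09.

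Among 12 genes that process SIBLING proteins or serve as their receptors, 11 were tested and 0 rose or fell in edgeR. Mmp3, a stromelysin that can cleave osteopontin, stood at 1.57 ± 0.39 (SE, adjusted p 0.097) and Cd44, a receptor of osteopontin, at 0.61 ± 0.21 (SE, adjusted p 0.21). The integrin chains Itgav (0.30), Itgb3 (-0.10) and Itgb5 (0.15) and the procollagen proteinase gene Bmp1 (0.11), which also cleaves DMP1 and DSPP, lay nearer 0. The median of the 11 was 0.107. There were 3 higher and 1 lower at an unadjusted p under 0.05, and DESeq2 called 1 higher. Among all tested genes 0.703% rose and 0.475% fell, while 7.79% were higher and 7.2% lower at an unadjusted p under 0.05. DESeq2 called 2.64% of its tested genes higher and 2.12% lower. These shares also stand beside the counts of the lists that follow.

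Of 16 genes of phosphate transport, mineral formation and FGF23 action, 15 were tested and 0 rose or fell in edgeR, with a median of 0.176. Fgfr1, a receptor of FGF23 with the cofactor Klotho, had 429, 496 and 403 CPM in Hdac3 CKO, against 285, 241 and 288 CPM in WT, without overlap. Its log2 fold change was 0.71 ± 0.14 (SE), with an adjusted p of 0.051. Ank, a gene for the release of pyrophosphate and ATP from cells, stood at 0.96 ± 0.21 (SE, adjusted p 0.067), at 222, 189 and 151 CPM in Hdac3 CKO, against 74.4, 88.2 and 126 CPM in WT. The phosphate transporter Slc20a2 (0.44) and the protease gene Furin (0.39), whose product can cleave FGF23, also did not overlap between the genotypes, while Alpl (0.18), the alkaline phosphatase of mineralising cells, did. Of the 15, 4 were higher and 0 lower at an unadjusted p under 0.05, and DESeq2 called 2 higher.

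Of 13 osteoblast and bone matrix genes 1 rose and 0 fell, and their median was 0.176, while 5 were higher and 1 lower at an unadjusted p under 0.05 and DESeq2 called 5 higher. The gene that rose was Col5a1, a chain of the collagen that nucleates fibrils, at 1.01 ± 0.16 (SE; adjusted p 0.022 in edgeR, 0.018 to 0.118 with any 1 library left out). Smpd3, a sphingomyelinase needed for bone mineralisation, stood at 0.92 ± 0.19 (SE, adjusted p 0.057). The gene lower at an unadjusted p under 0.05 was Runx2 (-0.44), without overlap between the genotypes. The osteocalcin genes Bglap (-0.23) and Bglap2 (-0.43), which belong to a cluster of near-identical copies and are uncertain, also lay below 0. So did the mineralising osteoblast gene Ifitm5 (-0.34), and the libraries of these 3 genes overlapped. Of the 13, 8 lay above 0, among them Sparc (0.65), Col1a2 (0.64) and Sp7 (0.38), each without overlap. Of 6 tested osteocyte-enriched genes 0 rose or fell in edgeR, with Capg at 0.57 ± 0.15 (SE, adjusted p 0.12), Ptprz1 at -0.58 ± 0.19 (SE, adjusted p 0.19) and a median of -0.224. Both directions had 2 of these genes at an unadjusted p under 0.05, and DESeq2 called 1 in each direction. Beside Capg and Ptprz1 these were Cd44 (0.61), also counted among the receptors above, and Dkk1. Dkk1 stood at -1.01 ± 0.33 (SE, adjusted p 0.20), the lowest of the 6, without overlap between the genotypes.

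**Figure D5:**
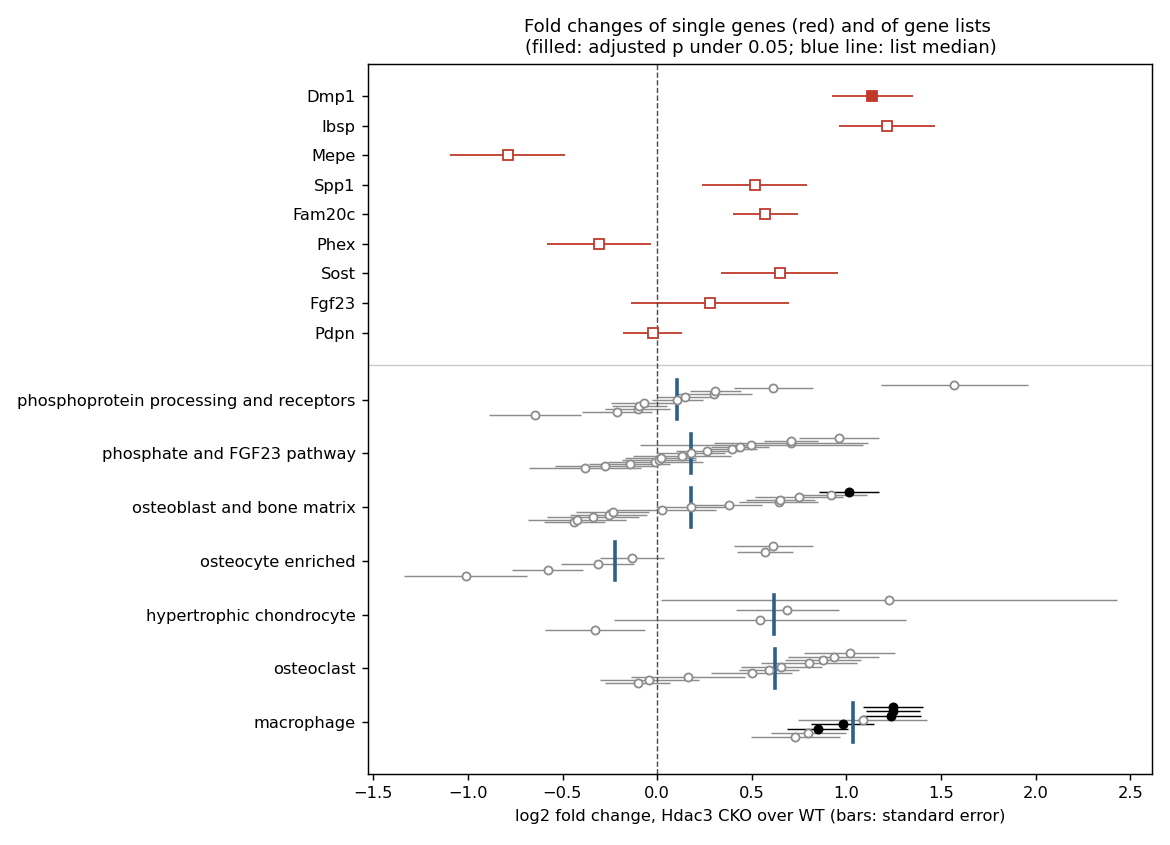
Log2 fold changes of Hdac3 CKO over WT (bars, SE) of the 9 tested genes (red squares) and of tested members of 7 related lists (circles), with list medians as blue lines and genes with an adjusted p under 0.05 filled. Dmp1 is the filled square, and the macrophage list has the highest median.

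Markers of other cell types were compared between the genotypes in the same way. Of 10 osteoclast genes 0 rose or fell in edgeR. At an unadjusted p under 0.05, 7 were higher, beside 7.79% of all tested genes. DESeq2 called 5 higher, beside 2.64% of its tested genes. The median of the osteoclast list was 0.623. Dcstamp (0.88 ± 0.20, SE) and Ocstamp (1.02 ± 0.24, SE) had the smallest p, and Acp5, the phosphatase that can remove phosphate from osteopontin, stood at 634, 629 and 482 CPM in Hdac3 CKO, against 248, 267 and 486 CPM in WT. The list summed to 2568 to 3322 CPM in Hdac3 CKO and to 1436 to 2572 CPM in WT. Of 8 macrophage genes 5 rose and 0 fell, namely C1qa (1.25), C1qb (1.24), C1qc (1.24), Emr1 (0.98) and Csf1r (0.85), and their sum was 493 to 578 CPM in Hdac3 CKO and 274 to 289 CPM in WT. The median of the 8 was 1.03. All 8 were higher at an unadjusted p under 0.05, and DESeq2 called 7 higher. Of all tested genes, 0.703% rose in edgeR. With any 1 library left out C1qc passed in 5 of 6 fits, C1qa and C1qb in 4 of 6, Emr1 in 1 and Csf1r in 0. The part of osteoclasts and macrophages in the Spp1, Dmp1 and Ibsp values was not tested.

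Of 4 hypertrophic chondrocyte genes 0 rose or fell in edgeR, with Mmp13 at 0.69 ± 0.27 (SE), Panx3 at -0.33 and a sum of 683 to 1217 CPM in Hdac3 CKO and 443 to 951 CPM in WT, and a median of 0.616. Of 9 chondrocyte genes 0 rose or fell, with Acan at 0.92 ± 0.72 (SE), Sox9 at -0.41 and a sum of 1870.0 to 15880.0 CPM in Hdac3 CKO and 2009 to 8272 CPM in WT, and a median of 0.387. At an unadjusted p under 0.05 there were 1 and 0 genes in these lists, and DESeq2 called 0 in both. Without the cartilage-rich library 3 of both genotypes Ibsp stood at 1.53 in place of 1.21, with an adjusted p of 0.14 in edgeR. The part of chondrocytes and hypertrophic chondrocytes in the Ibsp values was not tested.

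Skeletal muscle genes, 0 of 7 called, summed to 25630.0 to 42630.0 CPM in Hdac3 CKO and to 23620.0 to 28140.0 CPM in WT. Muscle RNA was thus plentiful in every library although the bones had been cleaned of soft tissue. The sum was highest in Hdac3 CKO library 1. Des stood at 0.53 and Myh3 at 0.33, and the list median was 0.381. Epidermal genes, 0 of 5 called, summed to 14.1 to 37.6 CPM in Hdac3 CKO and to 7.22 to 15.8 CPM in WT, with Trp63 at 0.71 and Krt15 at 2.55 and a median of 1.90. In the muscle list 1 gene was higher at an unadjusted p under 0.05 and DESeq2 called 0, and in the epidermal list both counts were 2. Of 5 erythroid genes 2 fell, Alas2 (-1.01) and Hbb-bs (-1.07). At an unadjusted p under 0.05, 4 were lower, and DESeq2 called 3 lower. The list summed to 96.5 to 112 CPM in Hdac3 CKO and 153 to 249 CPM in WT, with a median of -1.01. With any 1 library left out Alas2 passed in 0 of 6 fits and Hbb-bs in 1. Of 3 tested tooth and enamel genes 1 rose, Mmp20, whose product cleaves DSPP in teeth, with 11, 10 and 14 counts in Hdac3 CKO, against 0 counts in each WT library, while Ambn stood at -1.49. Mmp20 did not pass without any 1 library. DESeq2 called 0 of the 3, but it gave Mmp20 no adjusted p and so no verdict on that gene. Of 5 sex-linked genes 0 rose or fell in edgeR, at an unadjusted p under 0.05 or in DESeq2, with Kdm5d at 2.75 and Uty at 3.98, both highest in Hdac3 CKO library 3.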

How the data were processed

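For each of the 6 libraries the deposited tables hold raw whole-number counts by gene and the authors' RPKM values, which scale them by gene length and library size. The submitters' processing notes name the build mm10 and 4 tools, among them TopHat2 (2.1.0) and featureCounts. How strand and multiply matching reads were handled was not given in the sources used here, nor was the annotation. Counts were scaled by TMM and filtered by edgeR's filter on low counts, and the genotypes were compared with edgeR 4.0.16 (R 4.3.3) by the quasi-likelihood test with robust moderation, no covariate and 4 residual degrees of freedom. Alternatives used DESeq2 1.42.0 and limma 3.58.1, other scaling factors and filters, log2 RPKM with pseudocounts of 1 and 0.1, and fewer libraries. With 2 libraries left in a genotype, the spread is pooled over both. The procedure was tested on simulated data. Replicates were numbered in the order of their records. The 10 genes and the lists were chosen with earlier results of these data known. Genes named are the 10 genes, Hdac3, tested neighbours of the cluster, the list members with the 2 smallest p or that passed, and for each SIBLING gene the 3 genes with the highest r among those with a mean of at least 1 CPM, leaving out predicted genes (Gm and Rik names). Other list members named, Col1a1 and the sequence windows were chosen after their values were seen. Of the listed symbols, Adgre1, present under its older name Emr1, and Destn were not found in the table. Sequences are from RefSeq. Counting intervals cover counting error only.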

Additional observations from a re-analysis of the deposited data

How the results depend on the processing

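No paired analysis was possible because the labels give the libraries no shared replicate numbers. The number of the 10 genes that rose, 1 in the reported fit, was 0 with library totals, on log2 RPKM with either pseudocount, without library 3 of both genotypes and with the Xist covariate, 2 with no filter on low counts and in DESeq2, and 0 to 2 when any 1 library was left out. None of these settings gave a gene of the 10 that fell. Of all tested genes, 0.703% rose in the reported fit, 0.287% with library totals, 2.64% in DESeq2, 0.238% and 0.292% on log2 RPKM with pseudocounts of 1 and 0.1, 0.0346% with the Xist covariate and 0.0533% to 0.559% with 1 library left out. The share that fell was 0.475% in the reported fit, 2.12% in DESeq2, 0.292% in limma-voom, 0% with the Xist covariate and 0.0484% to 0.284% with 1 library left out. Without library 3 of both genotypes 0 genes rose and 0 fell in edgeR, with 2309 genes at an unadjusted p under 0.05. Library totals moved the median of all genes to -0.184 and gave 32.6% of the called genes as higher, in place of 59.7%, where log2 RPKM gave 36.6% and 36.9%. Fgf23 lay between -0.082 (without Hdac3 CKO replicate 1) and 0.50, and Pdpn between -0.10 and 0.11 (without Hdac3 CKO replicate 3), with 1 library left out. Pdpn was also above 0 without WT replicate 1 (0.068), without library 3 of both genotypes (0.057) and with the Xist covariate (0.18). The other 7 tested genes kept their sign in the 16 alternatives, and the 4 ratios moved by less than 1 SD, pooled over both genotypes. Leaving out libraries leaves fewer degrees of freedom, but neither the part of this nor any other cause of the changed calls was tested.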
